A study of Mus musculus with 10 samples.

Results

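Hepatokines are proteins that hepatocytes secrete and that act on other organs, and 9 genes of this kind were followed here: *Enho* (adropin), *Fgf21*, *Gdf15*, *Angptl4*, *Angptl6*, *Ahsg* (fetuin-A), *Fetub* (fetuin-B), *Lect2* and *Rbp4*. Members were the non-control array probes whose gene name in the scanner files is one of these symbols or an older symbol of it. That gave 11 probes for 9 genes, of 27670 genes named on the array. *Fgf21* and *Angptl6* had a pair of probes each, and *Enho* was listed under its older name 2310040A07Rik. Each of the 11 probes gave a signal well above background on every array, and 0 were saturated, so all 9 genes were among the 15806 tested.

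Total liver RNA came from C57BL/6 mice at 1 year of age. The 5 arrays of the wild-type group (WT1 to WT5) were set against 5 arrays of the TAK1 KO group (KO1 to KO5). TAK1 is an older name of the nuclear orphan receptor TR4, encoded by *Nr2c2*, and is not the kinase of the same abbreviation. No treatment is given for either group, the labels do not state which part of the gene was removed, and they do not describe the knockout as limited to a cell type. Each array held 1 Cy3-labelled sample. The labels do not say that the samples came from separate mice, so each p-value speaks only of the scatter among the samples, which may be technical.

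Several of these hormones are known as readouts of the nutritional state of the liver. PPARA, the nuclear receptor that senses fatty acids, induces *Fgf21* and *Angptl4* in fasting. ATF4, the effector of the integrated stress response, induces *Fgf21* when amino acids are short or the endoplasmic reticulum is stressed, and *Gdf15* is another of its targets. Adropin, in contrast, is known to be high in the fed state and to fall with fasting. TR4 binds direct repeats of the motif AGGTCA, the same kind of element that PPAR and RXR pairs bind.

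4 probe sequences are shown because the reading of *Fgf21*, *Gdf15* and *Angptl6* rests on them. All are 60 bases long, are given 5′ to 3′ as in the scanner files, and are placed on the minus strand of the mouse build mm7. The second probes of *Fgf21* and *Angptl6* span 615 and 1153 bases of the genome, so each joins stretches of sequence on both sides of a gap, as a probe across an exon junction does. No annotation of that build was used, so probes were not placed in exons or untranslated regions.
*Fgf21* second probe, chr7:41790404-41791018: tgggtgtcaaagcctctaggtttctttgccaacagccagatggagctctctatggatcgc
*Gdf15* probe, chr8:69084712-69084771: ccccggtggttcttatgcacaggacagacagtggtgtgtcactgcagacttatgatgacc
*Angptl6* first probe, chr9:20750438-20750497: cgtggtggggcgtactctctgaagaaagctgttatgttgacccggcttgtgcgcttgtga
*Angptl6* second probe, chr9:20750623-20751775: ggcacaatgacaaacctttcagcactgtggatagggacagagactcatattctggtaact

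The 250 bases before the start of *Fgf21* and of *Gdf15* are shown because the ATF4 and PPARA target genes described further on are read beside these members. They are RefSeq promoter windows of the build GRCm38.p6, both on the minus strand, with the motifs that were found in capitals.
*Fgf21*, chr7:45615491-45615740: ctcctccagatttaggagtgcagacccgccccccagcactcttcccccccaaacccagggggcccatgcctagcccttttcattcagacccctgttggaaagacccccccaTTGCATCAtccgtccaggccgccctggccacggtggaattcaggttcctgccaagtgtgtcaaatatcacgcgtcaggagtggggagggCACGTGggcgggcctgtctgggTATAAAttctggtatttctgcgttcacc
*Gdf15*, chr8:70632457-70632706: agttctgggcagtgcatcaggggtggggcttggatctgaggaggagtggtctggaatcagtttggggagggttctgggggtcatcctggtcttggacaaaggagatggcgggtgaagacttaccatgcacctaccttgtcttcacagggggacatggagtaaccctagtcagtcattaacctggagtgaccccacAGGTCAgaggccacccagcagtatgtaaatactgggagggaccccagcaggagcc

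In the *Fgf21* window the capitals mark, from the far end, a match on the opposite strand to TGATGNAA, the core of the composite element bound by C/EBP and ATF4, 139 bases before the start. They then mark the E box CACGTG at 50 bases and TATAAA at 28 bases. In the *Gdf15* window shown they mark 1 copy of AGGTCA, 55 bases before the start. *Gdf15* has a second window, for another start, which holds CACGTG 83 bases before that start. Among the other members, TGATGNAA was found in 1 of the 2 windows of *Rbp4*, 76 bases before the start, and TATAAA in the other *Rbp4* window and in 1 window of *Fetub*. Both strands were searched for TGATGNAA, AGGTCA and CACGTG, and the strand of the gene for TATAAA. TGATGNAA was found in 3.45% of 32851 such windows, CACGTG in 6.02%, TATAAA in 7.59% and AGGTCA in 14%. In the members TATAAA was marked only close to the start, 28 to 31 bases before it, while its share counts matches anywhere in a window. That share therefore does not say how often TATAAA lies so close to a start. The repeat of AGGTCA with a spacer of 1, which contains AGGTCA, was found in 0.0335% of windows and in none of the members' windows. 7 of the 9 genes matched a window by symbol, and *Enho* and *Angptl4* were not matched. A match describes letters only and was not tested as a binding site.

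The samples were checked before the members were compared. The 75th percentile of the signal, to which all values here are scaled, lay between 950.3 and 1344 on the 10 arrays. Of the 12 hepatocyte markers, 11 were tested and 0 changed. The log2 of their summed signal was 10.62 to 10.71 in wild type and 10.46 to 10.87 in knockout, a sum in which bright probes weigh most. In 3 of the 11 the groups did not overlap (*Pck1* and *Fga* higher, *Asgr1* lower in knockout), which 9.61% of all genes showed. With quantile normalisation 1 of the 11 was called higher. Correlations across genes were 0.988 to 0.994 between wild-type arrays and 0.965 to 0.988 between knockout arrays. KO2 stood apart, with the lowest mean correlation with its own group (0.971). The slides were unevenly filled. Slide 1 held WT1 to WT4, slide 2 held WT5 together with KO1, KO2 and KO3, slide 3 held KO5 and slide 4 held KO4, so slide 2 alone held both groups. The probes named *Nr2c2* were not lower in knockout, at 0.36 ± 0.13 and 0.44 ± 0.11 (log2 difference ± SE; limma adjusted p of 0.144 and 0.043 over probes). The second was thus called higher, against the label. A probe outside the deleted part would not check the label, and whether these probes lie outside it is not known. A probe named AK039370 is placed in the same region of chromosome 6, with the opposite listed direction. It was detected well above background in 5 wild-type samples and in 0 knockout samples, and was at least 5.25-fold lower in knockout. It passed the filter on dim probes through the wild-type group alone, so no p-value is given for it. For that bound each knockout array was given the dimmest signal that still counted as well above background there, or the probe's value where this was higher.

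Values are log2 signals relative to the 75th percentile of the array, and differences are knockout minus wild type with the SE of the limma fit. A gene is said to have changed when its adjusted p, over all 15806 genes, was under 0.05. Of the 9 hepatokines, 1 was higher in knockout (*Enho*) and 1 lower (*Gdf15*). Over all genes tested, 2.43% were called higher and 3.48% lower, 5.91% in all. The same 2 genes were those whose groups did not overlap, which 9.61% of all genes showed. In the fit over probes 2 of the 11 member probes were called, against 5.04% of all probes. *Enho* rose about 5-fold, *Gdf15* fell about 3-fold, and the other 7 genes did not pass the test. Probes differ in how brightly they light up, so levels are compared between arrays for 1 probe and never between genes.

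*Enho* encodes adropin, a small secreted peptide of liver and brain known for effects on glucose and lipid handling. Its signal was 1.44, 2.24, 2.39, 2.07 and 1.73 on WT1 to WT5. On KO1 to KO5 it was 3.84, 3.61, 4.59, 4.42 and 4.99. Every knockout array lay above every wild-type array, and the lowest knockout value was 1.22 above the highest wild-type value. Such a complete separation with knockout above was seen in 4.18% of all genes. The group means were 1.97 ± 0.39 and 4.29 ± 0.56 (SD, n = 5 each), a difference of 2.32 ± 0.28 (95% interval 1.70 to 2.93), or 4.98-fold (limma adjusted p = 0.0022). The exact two-sided permutation p was 0.00794, the smallest that 5 against 5 arrays can give. A difference of that size or larger, in either direction, was found in 0.335% of genes. On the unscaled intensity scale, the probe read 2576 to 6356 in wild type and 14314 to 32927 in knockout. Within slide 2, where WT5 read 1.73 and KO1 to KO3 read 3.61 to 4.59, the difference was 2.28, close to that over all arrays, but the test did not pass (limma adjusted p = 0.814, and 0.156 with slide as a block over all arrays). Both fits set the knockout arrays of slide 2 against the single wild-type array there, so their p-values say little about whether a difference holds. Whole liver was measured, and fewer cells of a type cannot be told apart from less RNA per cell in any of these values.

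**Figure D1:**
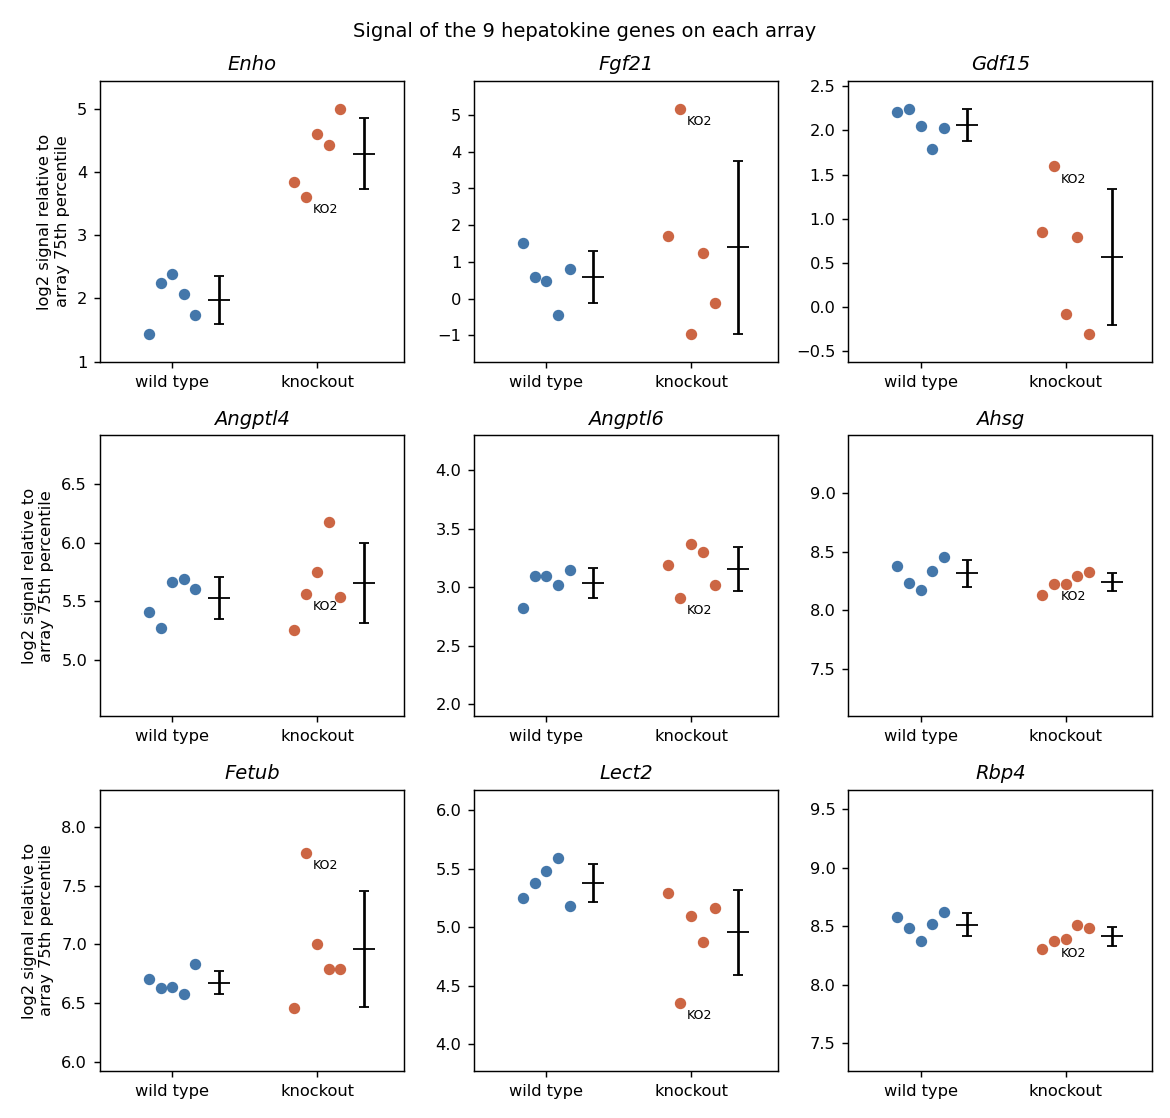
Log2 signal relative to the 75th percentile of the array (y axis) on each wild-type and knockout array, 1 panel per gene with the probe that represents it, where points are arrays in replicate order and the black marks are means ± SD (n = 5). *Enho* is separated upward and *Gdf15* downward in knockout, while the *Fgf21*, *Fetub* and *Lect2* panels show KO2 away from the other knockout arrays.

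*Gdf15*, growth differentiation factor 15, is a stress-induced hormone that signals through GFRAL and RET in the hindbrain and lowers food intake. Its signal was 2.21, 2.24, 2.05, 1.78 and 2.02 on WT1 to WT5. On the knockout arrays, KO1 to KO5, it was 0.85, 1.59, -0.08, 0.80 and -0.30. The knockout values were all lower than the lowest wild-type value, a separation seen in 5.43% of all genes, but the gap between KO2 and WT4 was small (0.19). The means were 2.06 ± 0.18 and 0.57 ± 0.77 (SD, n = 5 each). *Gdf15* thus fell by 1.49 ± 0.32 on the log2 scale (95% interval of the difference -2.20 to -0.78), 2.81-fold lower in knockout (limma adjusted p = 0.028, exact permutation p = 0.00794).

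The call of *Gdf15* was close to the threshold. It was lost when any 1 of the 5 wild-type arrays was left out (limma adjusted p of 0.052 to 0.076), while it held when any 1 knockout array was left out, with a fall of 1.74 and an adjusted p of 0.0059 without KO2. Within slide 2, and with slide as a block, *Gdf15* fell by 1.24 on the log2 scale. That value rests on WT5 as the only wild-type array, so the test there says little either way (limma adjusted p = 0.999 and 0.522).

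The knockout values of *Gdf15* were also more scattered than the wild-type ones. Their SD was 4.22 times that of wild type, a ratio reached by 6.66% of genes. From highest to lowest the knockout arrays ran KO2, KO1, KO4, KO3 and KO5 for *Gdf15* and KO5, KO3, KO4, KO1 and KO2 for *Enho*, exactly the reverse. This pair of members was picked after the values were seen. The wild-type arrays did not run in reverse order, and WT2 was among the higher ones for both genes (2.24 for each). With 5 arrays no correlation is given. Across all 10 arrays, after removing group means, the 3 genes most like *Enho* were *Hypk* (Pearson r = 0.943), *Eif3k* (0.941) and *Wdr78* (0.936). For *Gdf15* they were *Dll1* (0.963), *Nf1* (0.932) and 4932438A13Rik (0.931). These were picked as the highest among all genes tested, so their size is a description.

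*Fgf21* encodes a fasting and stress hormone that acts through FGFR1 and the co-receptor beta-klotho. On the first probe the signal was 1.52, 0.58, 0.49, -0.44 and 0.80 on WT1 to WT5. The knockout arrays read, from KO1 to KO5, 1.71, 5.16, -0.96, 1.23 and -0.13. KO2 lay far above every other array, KO3 lay below all of them, and the other 3 knockout arrays fell within or just above the wild-type range. In unscaled intensity KO2 read 41899 and KO3 574.6 on this probe.

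The difference between the groups in *Fgf21* was 0.81 ± 0.98 (95% interval -1.37 to 2.99) and did not pass the test (limma adjusted p = 0.658, exact permutation p = 0.579). Its direction rested on KO2: without that array the difference was -0.13 ± 0.57 (limma adjusted p = 0.920). The interval over all arrays includes large changes in both directions, so the data do not show that *Fgf21* was alike in the groups. The knockout arrays spanned a 69.6-fold range and the wild-type arrays a 3.89-fold range. The knockout SD was 3.35 times that of wild type, a ratio that 12.2% of genes reached.

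The second *Fgf21* probe, which spans the gap, gave the same pattern. It read -0.55, -1.65, -1.66, -2.65 and -1.44 on WT1 to WT5. Its values on KO1 to KO5 were -0.50, 3.06, -3.04, -0.85 and -2.21. The difference was 0.88 ± 0.97 (limma adjusted p = 0.634 over probes). The offset between both probes stayed between 2.07 and 2.23 on every array, and their correlation over the 10 arrays was 0.999. The high value on KO2 was read by both probes. KO2 stood 4.61 above the median of the other knockout arrays, and 0.0886% of genes were at least as far from that median on KO2. The genes most like *Fgf21* over the 10 arrays after removing group means were *Phlda2* (r = 0.962), *Cacul1* (0.959) and *Atxn7l3* (0.958).

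**Figure D2:**
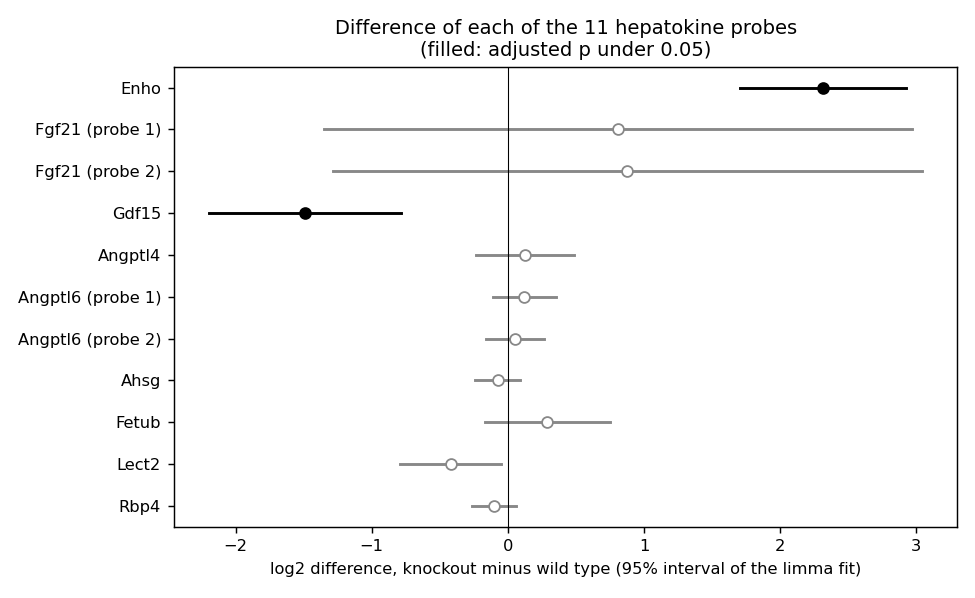
Log2 difference, knockout minus wild type (x axis), with its 95% interval from the limma fit over all probes, for each of the 11 hepatokine probes (rows), filled where the adjusted p was under 0.05. *Enho* lies to the right of 0 and *Gdf15* to the left, both *Fgf21* intervals reach from below -1 to about 3, and the intervals of *Ahsg*, *Rbp4* and both *Angptl6* probes stay within 0.4 of 0.

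The angiopoietin-like members showed small differences. *Angptl4*, a secreted inhibitor of lipoprotein lipase and a classical PPAR target, read 5.41, 5.27, 5.67, 5.69 and 5.61 on WT1 to WT5. On KO1 to KO5 it read 5.25, 5.57, 5.76, 6.18 and 5.54. The groups overlapped, and the difference was 0.13 ± 0.16 (95% interval -0.23 to 0.49, limma adjusted p = 0.673). Its sign turned within slide 2 (-0.08) and without KO4 (-0.0024).

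*Angptl6*, a circulating factor known to counter obesity and insulin resistance in mice, differed by 0.12 ± 0.10 on its first probe (95% interval -0.11 to 0.35, limma adjusted p = 0.512). That probe read 2.82 to 3.15 in wild type and 2.91 to 3.37 in knockout. The second, gapped probe read 1.43 to 1.75 in wild type and 1.47 to 1.87 in knockout, a difference of 0.06 ± 0.10 (limma adjusted p = 0.770 over probes). The offset between both probes was 1.35 to 1.58 over the 10 arrays. With normexp background correction and percentile scaling the sign of *Angptl6* turned (-0.02).

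The fetuins, which are related cystatin-family plasma proteins, are encoded side by side on chromosome 16, where their probes lay 41.6 kb apart. *Ahsg*, known as an inhibitor of insulin receptor signalling and of calcification, read 8.17 to 8.45 in wild type and 8.13 to 8.33 in knockout. The difference was -0.07 ± 0.07 (95% interval -0.24 to 0.09, limma adjusted p = 0.584), and its sign turned under quantile normalisation (0.03), under normexp with quantile normalisation (0.01) and with no scaling (0.03).

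*Fetub*, its neighbour, read 6.70, 6.63, 6.64, 6.58 and 6.83 on WT1 to WT5. Its values on KO1 to KO5 were 6.46, 7.78, 7.002, 6.79 and 6.79. KO2 was the highest of the 10 arrays and KO1 the lowest. The difference of 0.29 ± 0.21 (95% interval -0.17 to 0.75, limma adjusted p = 0.432) shrank to 0.08 without KO2. The knockout SD of *Fetub* was 5.12 times the wild-type SD, a ratio reached by 3.90% of genes, whereas for *Ahsg* the ratio was 0.67, which 91.2% of genes reached.

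*Lect2* encodes a secreted factor linked to insulin resistance in muscle. It read 5.25, 5.38, 5.48, 5.59 and 5.18 on WT1 to WT5. On KO1 to KO5 it read 5.29, 4.36, 5.09, 4.87 and 5.16. KO2 to KO5 were lower than any wild-type array, and KO1 was within their range. The difference was -0.42 ± 0.17 (95% interval -0.79 to -0.05, exact permutation p = 0.0317), and it did not pass the adjustment over all genes (limma adjusted p = 0.168). An unadjusted limma p under 0.05, which *Lect2* had (0.031), was found in 23.7% of genes. Without KO2 the difference was -0.27 (limma adjusted p = 0.179).

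*Rbp4*, the plasma carrier of retinol, read 8.37 to 8.62 in wild type and 8.30 to 8.51 in knockout, and the groups overlapped. The difference was -0.10 ± 0.07 (95% interval -0.26 to 0.06, limma adjusted p = 0.427), and with no scaling its sign turned (0.0081). *Rbp4* and *Ahsg* were among the 3 genes most like each other over the 10 arrays after removing group means (r = 0.960), a description of small deviations on arrays that share one scaling.

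**Figure D3:**
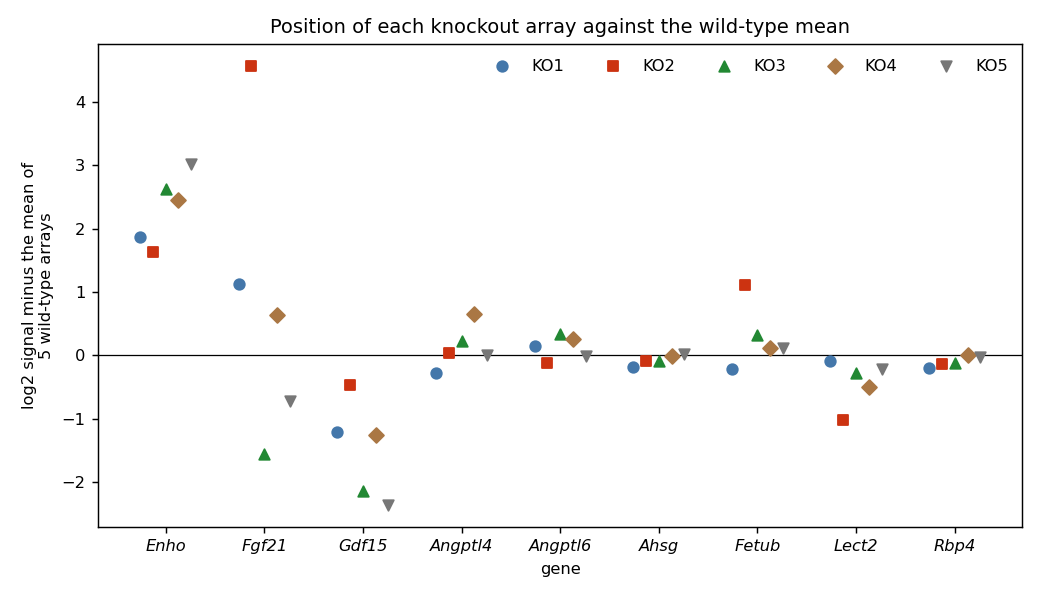
Log2 signal of each knockout array minus the mean of the 5 wild-type arrays (y axis) for the 9 genes (x axis), 1 symbol per array. All 5 arrays lie above 0 for *Enho* and below 0 for *Gdf15*, and KO2 (red squares) is the highest knockout array for *Fgf21*, *Gdf15* and *Fetub* and the lowest for *Enho*, *Angptl6* and *Lect2*.

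KO2 differed from the other knockout arrays across several members at once. Against the median of the other 4 knockout arrays it was higher by 4.61 for *Fgf21*, 1.24 for *Gdf15* and 0.99 for *Fetub* on the log2 scale. It was lower by these log2 differences for *Enho* (-0.90) and *Lect2* (-0.77). KO2 was not alone in this. KO5 stood apart from the other 4 by -1.60 for *Fgf21*, -1.13 for *Gdf15* and 0.86 for *Enho*, and KO3 by -2.43 for *Fgf21* and -0.91 for *Gdf15*. Over all genes, 7.48% lay more than 1 log2 unit from the other knockout arrays on KO2, against 2.25% to 6.06% on each of the other 4. For *Gdf15* and *Enho* KO2 was the knockout array nearest to wild type, and both differences were larger without it (-1.74 and 2.49).

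Targets of ATF4 and the integrated stress response were read beside *Fgf21* and *Gdf15*. Of 22 listed genes 18 were tested, 1 was higher in knockout and 0 were lower, with a median difference of 0.19 against 0.01 over all genes. The gene that rose was *Asns*, asparagine synthetase, by 5.23 ± 0.53 (limma adjusted p = 0.0012). It read 3.63, 5.16, 4.32, 4.48 and 5.02 on KO1 to KO5 against a wild-type mean of -0.71, so it was high on every knockout array, whether *Fgf21* was high or low there. Without KO2, 2 genes were called higher, *Asns* and the amino acid transporter gene *Slc7a5* (0.59, limma adjusted p = 0.021), and the median was 0.08.

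Most of the stress list was at its highest on KO2. Relative to the wild-type mean, the median of the list was 0.92 on KO2 and between -0.02 and 0.37 on the other 4 knockout arrays. Of the 17 genes with a value on every array, 13 had their highest value of the 10 arrays on KO2, or 76.5%, where 17.4% of all genes did. Examples, chosen after their values were seen, are the glutathione-degrading enzyme gene *Chac1*, at 3.72 on KO2 and -1.65 to 0.53 on the other knockout arrays, and the serine synthesis genes *Phgdh*, at 1.49 against -4.38 to -3.10, and *Psat1*, at 0.76 against -4.26 to -3.16. None of these 3 passed the test between groups (limma adjusted p of 0.456 for *Phgdh*, 0.406 for *Chac1* and 0.246 for *Psat1*). The 1 gene of the list lowest on KO2 was *Cth*, at 4.16 against 5.51 to 5.65 on the other knockout arrays. KO2 was also the lowest of the 10 arrays for 25.6% of all genes. In the lists described further on that share was 45% (PPARA and PPARD targets), 45.8% (transcription factors), 47.4% (receptors, carriers and targets) and 17.6% (other secreted factors). *Atf4* itself differed by 0.26 ± 0.08 (limma adjusted p = 0.096). It read 2.47 on KO2, close to 2.49 on KO1, and its highest wild-type value was 2.28.

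**Figure D4:**
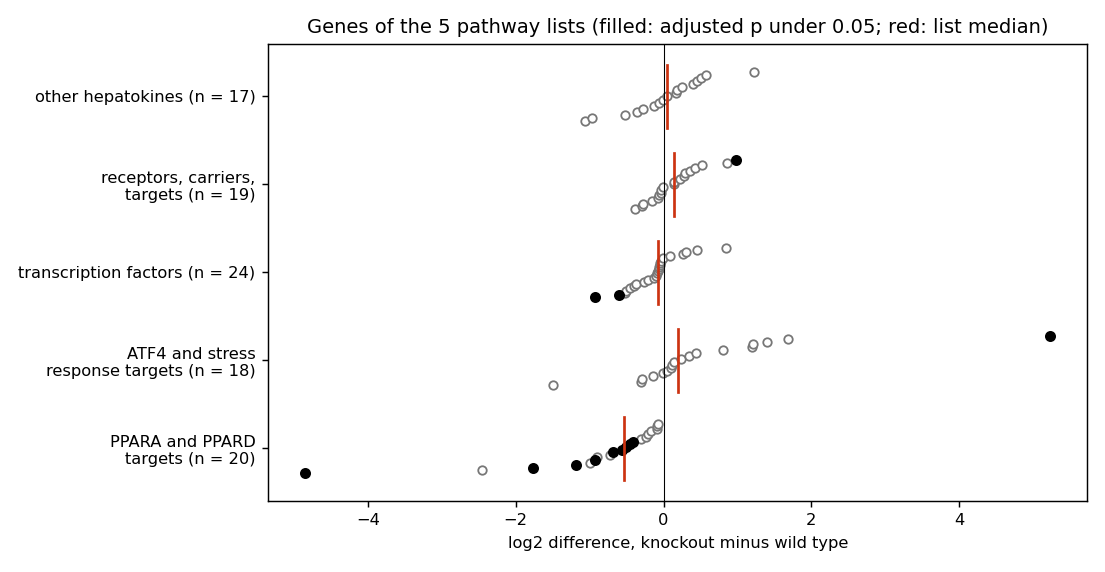
Log2 difference, knockout minus wild type (x axis), of each tested gene in 5 pathway lists (rows), filled where the adjusted p was under 0.05, with the list median in red. All 20 PPARA and PPARD targets lie below 0, while *Asns* is the filled point at 5.23 in the stress response list.

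PPARA and PPARD targets, which handle fatty acid oxidation and storage, leaned to lower values in knockout, in a list that includes no member. All 20 listed genes were tested, 9 were called lower and 0 higher, and all 20 differences were negative, with a median of -0.54 against 0.01 over all genes. With no scaling 17 of 20 were negative, and with quantile normalisation 19 of 20 were. *Cidec*, a lipid droplet protein gene, fell by 4.85 ± 0.54 on the log2 scale (limma adjusted p = 0.0017). *Slc25a20*, the mitochondrial carnitine carrier gene, fell by 0.46 ± 0.07 (0.0065), and *Plin2*, a lipid droplet coat gene, fell by 0.68 ± 0.12 (0.015). The members that the same receptor is known to induce differed by 0.13 (*Angptl4*) and 0.81 (*Fgf21*), and neither passed the test. The count of lower targets was 11 without KO2, 3 without WT2, 4 without WT5 or without KO4, 5 without WT4 or without KO5, 1 with normexp and percentile scaling, 3 with no scaling, 4 with no filter on dim probes, 2 with the replicate block, and 0 with slide as a block or within slide 2. Some adipocyte markers moved with this list, where 5 of 10 were tested and 3 were lower (*Pparg*, *Cidec* and *Cfd*). The other 2 tested were *Lpl*, at 0.86 ± 0.31 (limma adjusted p = 0.128, and called higher without KO2 at 1.13), and *Fabp4*, at -0.25 ± 0.14 (0.300). The log2 of the summed signal of the 5 tested was 4.95 to 6.07 in wild type and 3.35 to 3.90 in knockout. Among the adipocyte markers not tested, *Adipoq*, *Lep* and *Adrb3* were not above background on any array. *Retn* and *Plin1* were above background on at least 1 array, but on too few to be tested. *Cidec* is in both lists. The part of adipocytes in the result was not tested.

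The transcription factors known to act on *Fgf21*, *Gdf15*, *Angptl4* or *Enho* were mostly not called. Of 25 genes 24 were tested, 0 were higher and 2 lower, with a median difference of -0.08. *Pparg*, the adipogenic PPAR that fatty livers also express, fell by 0.93 ± 0.10 on the log2 scale (limma adjusted p = 0.0013). *Ppara* fell by 0.60 ± 0.15 (limma adjusted p = 0.048), a call that was lost in 15 of 25 alternatives. RORA and NR1D1 are regulators linked to *Enho*, and their genes differed by -0.06 ± 0.11 and -0.51 ± 0.23 (limma adjusted p of 0.777 and 0.203).

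Receptors, carriers and targets of the members gave 1 call. Of 22 genes 19 were tested, 1 was higher and 0 were lower, with a median difference of 0.14. *Fgfr1*, the principal receptor of FGF21 outside the liver, read low and rose by 0.98 ± 0.14 (limma adjusted p = 0.0056). It dropped out of the test when only probes well above background on all arrays were kept. Its difference was 0.41 with normexp and quantile normalisation, where it was still called, and 0.50 with slide as a block. The call was lost with normexp and percentile scaling (limma adjusted p = 0.288) and in both fits that use slide (0.501 as a block, 0.999 within slide 2). Of the 10 endothelial markers 1 (*Flt4*) was also called higher. 9 differences were positive, and *Lyve1* went the other way (-0.51 ± 0.35, limma adjusted p = 0.414). The log2 of the summed signal of these markers was 4.41 to 4.88 in wild type and 5.02 to 5.64 in knockout. Bright probes weigh most in that sum, and the brightest was *Clec4g* (means of 3.48 and 4.06). The part of endothelial cells in the result was not tested. The co-receptor gene *Klb* differed by 0.15 ± 0.13 and *Fgfr4*, the FGF receptor of hepatocytes, by 0.14 ± 0.11. *Gpr19*, a proposed adropin receptor gene, differed by -0.38 ± 0.14 (limma adjusted p = 0.148). *Ret*, whose product is the co-receptor of GDF15, was not above background on any array. Without KO2, 3 genes of this list were called higher, *Fgfr1*, *Tie1* and *Lpl*.

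Other secreted liver factors outside the 9 members gave no call. Of 20 genes 17 were tested and 0 passed in limma, with a median difference of 0.05. An unadjusted limma p under 0.05 was found for 4 of the 17, near the share over all genes (23.7%). The smallest p belonged to *Tsku*, a secreted leucine-rich protein gene, at -0.97 ± 0.29 (limma adjusted p = 0.079). *Tsku* was below the wild-type range on all 5 knockout arrays, as were 5.43% of all genes. It was the only 1 of the 17 whose groups did not overlap.

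The calls of both changed members were recomputed under 25 alternatives. The difference of *Enho* stayed between 2.14 and 2.49 and was called in 23 of them, all but the 2 that use slide. That of *Gdf15* stayed between -1.76 and -1.24 and was called in 15. For both genes, 2 of the alternatives without a call are the fits that use slide, which rest on 1 wild-type array.

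**Figure D5:**
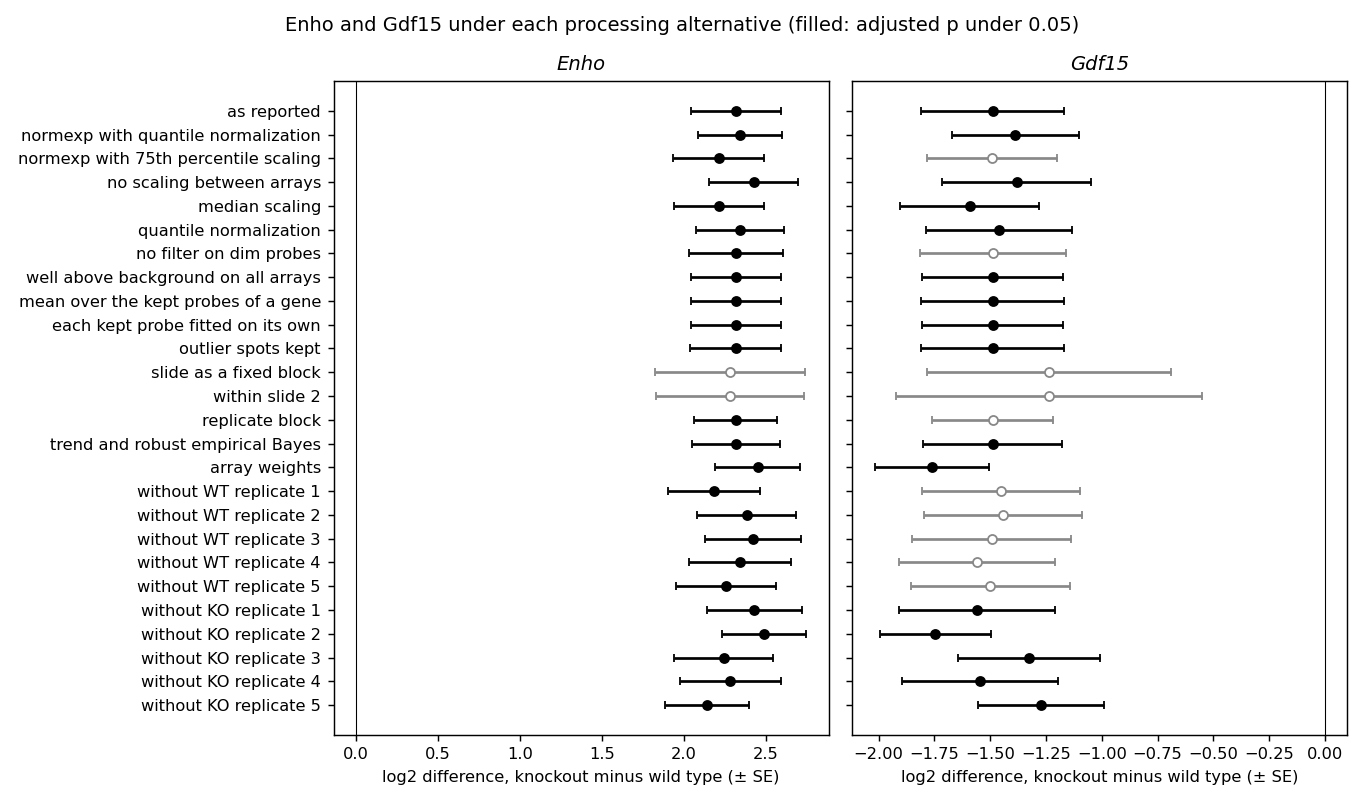
Log2 difference, knockout minus wild type, with its SE (x axis) of *Enho* and *Gdf15* as reported and under each of 25 processing alternatives (rows), filled where the limma adjusted p was under 0.05. The signs hold in every row, *Enho* is open in 2 rows and *Gdf15* in 10.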

How the data were processed

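Per the file headers, the authors read the 10 array images with version 9.5.1.1 of Agilent Feature Extraction (the submitters' processing notes name 9.5). That program subtracted the background and removed spatial trends within an array, so the deposited intensity of a spot is corrected but not scaled between arrays. The series value table repeats these linear, uncentred intensities (largest difference 0, column medians 80.0 to 107.6).

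Intensities were put on the log2 scale without a pseudocount and scaled by subtracting the 75th percentile of an array's non-control spots. Outlier spots were set to missing, which left 75 missing values. Replicate spots were averaged. Probes were kept if at least 4 of the 5 arrays of either group read them well above background (23263 of 41174), and a gene was represented by its brightest kept probe. Symbols were updated through a RefSeq table of a later build (22951 probes by accession, 6659 by symbol, 3109 by older symbol, 8455 kept the file's name).

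The comparison used limma 3.58.1 (lmFit, eBayes; R 4.3.3), two-sided, with Benjamini-Hochberg adjustment over all genes. Exact permutation tests used 5 against 5 arrays. On simulated arrays of 15806 genes, 200 genes were changed, 50 at each of 4 sizes. There this fit recovered 42% of genes changed by 0.5 (log2), 84% at 1, 96% at 2 and 96% at 3. On the measured arrays 934 genes were called, and for some genes the scatter differed between the groups. The share of changed genes recovered on the measured arrays was not tested. The number of arrays limits the precision.

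Members and lists were chosen with earlier results of these data known. All members are named, with up to 3 called genes of each pathway list or otherwise the 1 with the smallest p, and the 3 genes most like *Enho*, *Gdf15* and *Fgf21*. Other genes were chosen after their values were seen. TATAAA and the counts of genes highest or lowest on KO2 were likewise added afterwards. Alternatives were other background corrections, scalings, filters, probe rules and variance models, slide, the replicate number as a block, and leaving out each array. Same-numbered samples were not alike in their deviations from the group means (correlations of -0.21 to 0.04). These values cannot show whether such samples were matched, because differently numbered samples were not compared.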

Additional observations from a re-analysis of the deposited data

How the results depend on the processing

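The number of genes called higher (384) was 21 with normexp and percentile scaling, 152 with median scaling, 80 with no filter on dim probes, 13 with slide as a block, 2 within slide 2, and 113 to 535 with 1 array left out. The number called lower (550) was 72 with normexp and percentile scaling, 156 with no scaling, 167 with no filter, 25 with slide as a block, 0 within slide 2, and 184 to 655 with 1 array left out. At an unadjusted p under 0.05, limma gave 701 genes within slide 2 in both directions together. The share of calls that were higher was 41.1% as reported, 66.5% with no scaling, 22.6% with normexp and percentile scaling and 21.4% with median scaling. The median difference of all genes was 0.12 with no scaling and 0.12 with no filter.

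Of the members, 0 rather than 1 were called higher with slide as a block and within slide 2. Called lower were 0 rather than 1 with normexp and percentile scaling, with no filter, with slide as a block, within slide 2 and with the replicate block, and 0 to 1 with 1 array left out. With the replicate block, 60 genes were called higher and 106 lower, and the adjusted p of *Gdf15* was 0.073. The numbers alone do not pair the samples.

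5 members changed sign under some alternative, and 0 of these values passed the test. *Ahsg* was 0.013 with normexp and quantile normalisation, 0.035 with no scaling and 0.035 with quantile normalisation. *Rbp4* was 0.0081 with no scaling. *Angptl4* was -0.082 with slide as a block and within slide 2, and ranged from -0.0024 (without KO4) to 0.23 with 1 array left out. *Angptl6* was -0.015 with normexp and percentile scaling. *Fgf21* ranged from -0.13 (without KO2) to 1.40 (without KO3). The cause was not tested. The median SE of a gene was 0.12 as reported, 0.22 with slide as a block and 0.27 within slide 2.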
